A study of Arabidopsis thaliana with 48 samples.

Results

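The members described here are 56 genes for proteins of the cytosolic ribosome of Arabidopsis thaliana, chosen by locus from the rows of the count table, out of 27420 genes in all. They comprise 31 large-subunit (RPL) genes, 4 stalk (RPP) genes and 21 small-subunit (RPS) genes of 28 families. Gene counts came from RNA of nuclei and of cytoplasm, prepared by differential centrifugation from tho5ab, which by its name is mutant in both genes for THO subunit 5, and from the wild type Col-0. THO is a complex that binds mRNA as it is made and takes part in its export, and the stated question is how mRNA export in the mutant fares during heat. The groups were tho5ab nuclei after 37 °C, tho5ab nuclei at 21 °C, Col-0 nuclei after 37 °C, Col-0 nuclei at 21 °C, and the cytoplasm of the same 4 kinds of plant, with 6 libraries each, 48 in all. All plants were 14 d old and grown in long days. Heated plants spent 3 h at 37 °C and were harvested with no recovery. RNA came from rosettes per the extraction protocol, while the tissue label reads Seedling. The alleles behind tho5ab, and the number of plants pooled for a library, are not given in the sources used here.

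A cytosolic ribosome joins a small subunit, which reads the mRNA, to a large subunit, which forms the peptide bonds and carries a stalk of acidic proteins that recruits translation factors. In Arabidopsis nearly every ribosomal protein is encoded by a small family of near-copies, here called paralogues, that differ in level between tissues and conditions. Their mRNAs are among the most abundant of growing tissue, are made in the nucleus and are translated in the cytoplasm, and the proteins then return to the nucleolus for assembly.

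Ribosomal protein genes of plants share short promoter elements, known as site II (TGGGCC or TGGGCT) and the telo box (AAACCCTA), which were looked up in the 250 bases before each annotated start, on both strands. Site II in either form was present in 40 of the 56 members (71.4%), against 19.2% of all 27420 genes. TGGGCC alone was found in 34 members (60.7%, against 13.7% of all genes), TGGGCT in 28 (50%, against 12.3%) and the telo box in 13 (23.2%, against 4.48%). Site II and telo box occurred together in 8 members (14.3%, against 1.36%). The heat shock element GAANNTTC was in 5 members (8.93%), close to its share of all genes (9.55%). These matches describe letters only. The windows of 2 pairs of paralogues follow, because in the cytoplasm the copies of RPL3 differ in their heat change and those of RPL4 in their genotype change at 37 °C. They are from RefSeq's TAIR10.1 assembly and annotation, whose nuclear chromosomes are those of TAIR10, and are printed 5′ to 3′ on the gene's own strand, with site II and telo box letters of either strand in capitals. RPL3A lies at chr1:16266303-16266552 (forward strand, 3 site II matches), RPL3B at chr1:22723153-22723402 (reverse strand, 2 matches), RPL4A at chr3:2953443-2953692 (forward strand, 4 matches) and RPL4D at chr5:657425-657674 (forward strand, 0 matches). None of these 4 windows holds a telo box or GAANNTTC.
RPL3A: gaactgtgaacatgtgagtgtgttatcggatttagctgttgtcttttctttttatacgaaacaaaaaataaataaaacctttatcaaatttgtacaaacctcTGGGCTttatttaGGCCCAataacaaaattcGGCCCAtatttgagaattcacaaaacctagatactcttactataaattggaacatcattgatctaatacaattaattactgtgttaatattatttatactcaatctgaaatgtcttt
RPL3B: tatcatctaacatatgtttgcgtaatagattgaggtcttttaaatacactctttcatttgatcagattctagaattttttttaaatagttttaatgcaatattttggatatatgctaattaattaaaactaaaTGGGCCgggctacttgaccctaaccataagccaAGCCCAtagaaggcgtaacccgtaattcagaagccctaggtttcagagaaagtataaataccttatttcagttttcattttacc
RPL4A: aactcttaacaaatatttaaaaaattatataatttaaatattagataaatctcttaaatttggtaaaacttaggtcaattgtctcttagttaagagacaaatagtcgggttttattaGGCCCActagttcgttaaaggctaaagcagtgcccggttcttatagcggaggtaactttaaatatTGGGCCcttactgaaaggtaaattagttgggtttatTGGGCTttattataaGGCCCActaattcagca
RPL4D: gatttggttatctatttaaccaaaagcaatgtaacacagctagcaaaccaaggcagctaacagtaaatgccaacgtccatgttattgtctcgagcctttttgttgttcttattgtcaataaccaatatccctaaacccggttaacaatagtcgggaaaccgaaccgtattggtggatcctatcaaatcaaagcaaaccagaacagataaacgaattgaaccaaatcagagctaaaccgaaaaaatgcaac

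Libraries were uneven in depth, with total counts of 1025185 to 2174279 in the cytoplasm and 2601946 to 19914838 in nuclei, so cytoplasmic values of members with few counts are the less precise. Of the mutated genes, THO5B had 0 counts in all tho5ab cytoplasm libraries and a mean of 0.128 CPM (37 °C) and 1.20 CPM (21 °C) in tho5ab nuclei, against 4.65 to 6.65 CPM in the Col-0 groups. THO5A did not follow the label at 21 °C, where tho5ab nuclei held 98.5 CPM and Col-0 nuclei 34.3 CPM, so tho5ab below means the libraries labelled so. At 37 °C tho5ab nuclei held 39.8 CPM of THO5A and Col-0 nuclei 185 CPM. HSP101, a chaperone induced by heat, averaged 43600 CPM in heated tho5ab cytoplasm and 14700 CPM in heated Col-0 cytoplasm, against 20.1 and 22.1 CPM at 21 °C. The 2 libraries of tho5ab replicate 7 at 37 °C stood apart. They had the highest THO5A of their groups (35.5 CPM in the cytoplasm and 118 CPM in nuclei), and results that rest on them are also given without them. In 16 of the 48 libraries, 1 to 3 in each group, genes nested in a gene on the opposite strand had high counts. Members that overlap another gene on either strand, or have a near-identical copy, are uncertain, since reads may belong to the partner. They are RPL3B, RPL8C, RPL9C, RPL24A, RPL11C, RPP0B, RPP0A, RPS13A, RPS18C, RPS8B, RPS15 and RPS19B. For RPP0B, RPS13A and RPS15 the overlap is on the same strand only, which leaving out the 16 libraries does not address. Summed over 4 leaf markers, levels were 16800 to 138000 CPM in cytoplasm and 1250 to 2440 CPM in nuclei; 4 root markers summed to 0 to 34.6 CPM and 3 flower markers to 0 to 5.15 CPM.

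Levels are given as CPM, a gene's count scaled to a common library total after TMM normalisation (which assumes that most genes do not differ), and changes as log2 fold changes of edgeR's quasi-likelihood fit with an approximate standard error (SE) after ±. A member is called where its Benjamini-Hochberg adjusted p over all 17981 tested genes is under 0.05. Nothing in the labels says that replicates were separate sets of plants, so p-values measure the spread between these libraries. All values are relative to the rest of the library. Spike-in counts were not used here, and a change in the RNA of the whole fraction, in the number of cells or in RNA per cell cannot be told apart from these data.

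Of the 56 members, 54 passed the filter on low counts. RPS8B (AT5G59240), a copy of the small-subunit protein eS8, failed it with 0 counts in every Col-0 cytoplasm library, which allows up to 3 counts over each group, and at most 44 counts in any nuclear library, and its means lay between 0.206 and 1.42 CPM in the tho5ab groups. RPP0A (AT2G40010), a gene for the stalk base protein P0, failed it too, with means of 0.108 to 3.65 CPM over the 8 groups. Per kb of exon, the most abundant members over all libraries were RPS8A at 399.2 CPM per kb, RPP1A (an acidic stalk protein) at 289.4, RPL3A (a core protein of the peptidyl transferase centre) at 257.4, RPL24B (which sits at the subunit interface) at 233.6 and RPL4A (which lines the peptide exit tunnel) at 216.1. RPS8A and RPS8B, copies of 1 protein, thus lie at opposite ends of the range.

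Member transcripts made up 0.600 ± 0.163% of counts in heated tho5ab cytoplasm and 0.752 ± 0.132% in tho5ab cytoplasm at 21 °C (SD, n = 6 here and below), and 0.795 ± 0.0759% and 0.664 ± 0.0830% in Col-0 cytoplasm at 37 and 21 °C. In nuclei the shares were 0.420 ± 0.0209% and 0.278 ± 0.0197% for tho5ab at 37 and 21 °C, and 0.313 ± 0.0431% and 0.212 ± 0.00978% for Col-0. In tho5ab cytoplasm at 37 °C, replicate 7 held 0.930% and the other 5 libraries 0.511 to 0.572%. Of the 54 tested members, 32 had their highest mean CPM in heated Col-0 cytoplasm, 10 in heated tho5ab cytoplasm, 7 in tho5ab cytoplasm at 21 °C and 5 in Col-0 cytoplasm at 21 °C. The lowest mean was in Col-0 nuclei at 21 °C for 34 members and in tho5ab nuclei at 21 °C for 16.

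**Figure D1:**
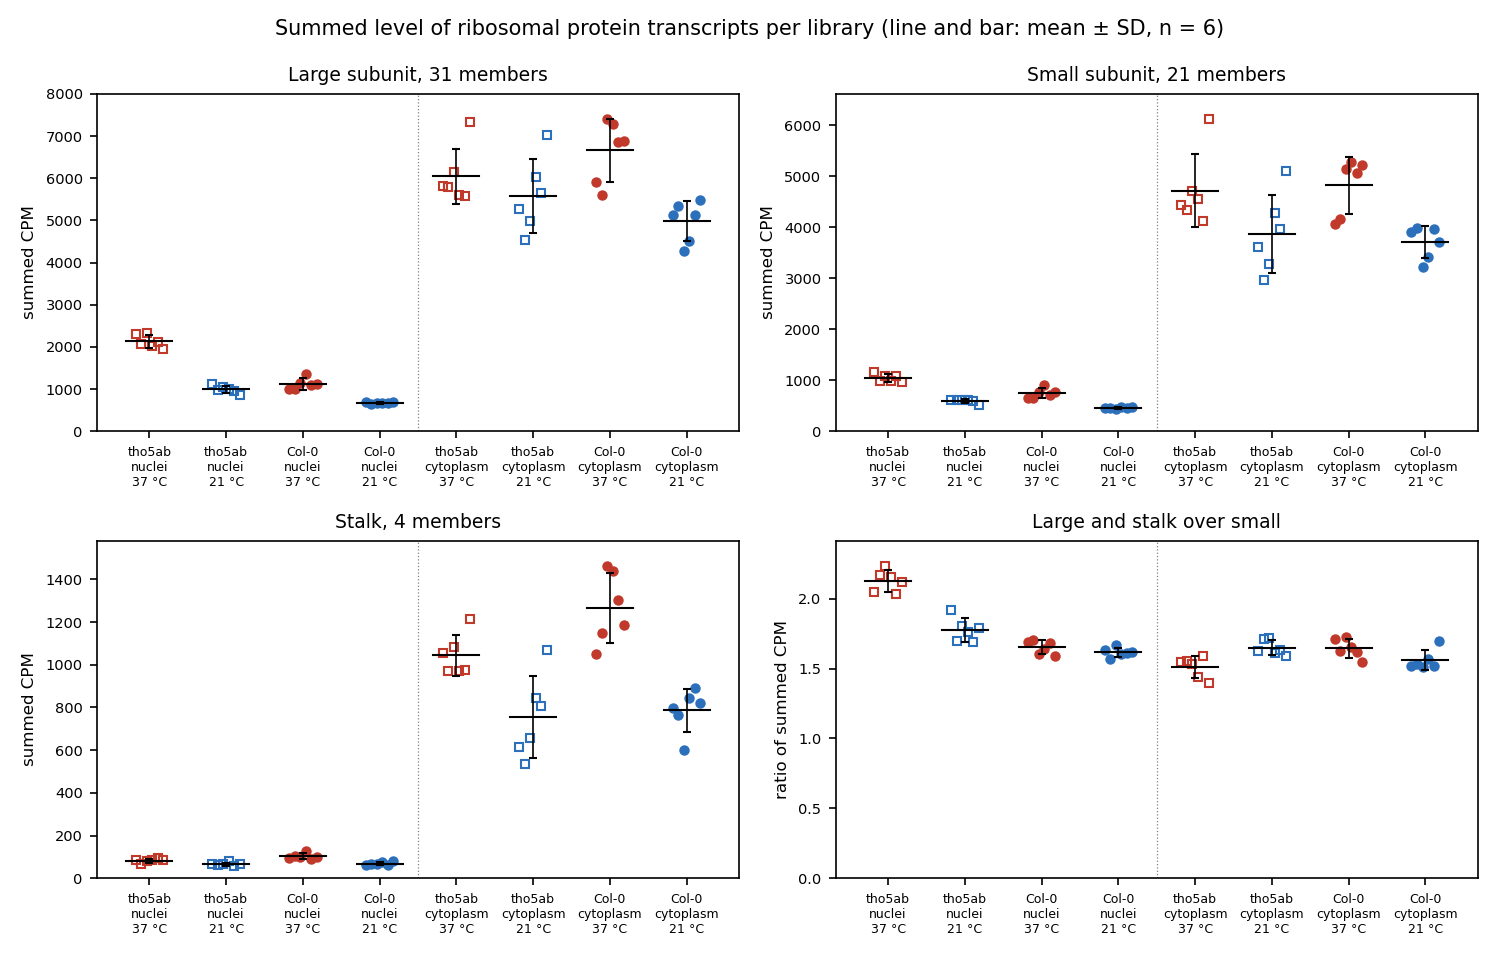
Summed CPM (y axes, from 0) of the 31 large-subunit, 21 small-subunit and 4 stalk members, and the ratio of large and stalk to small, in each library by group (x axis); points are libraries, open squares tho5ab and filled circles Col-0, red 37 °C and blue 21 °C, with mean ± SD (n = 6). In tho5ab nuclei at 37 °C the ratio lies between 2.03 and 2.24, above every library of the other 7 groups.

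The balance between subunits was set by summed CPM of large and stalk members over that of small members, a ratio that does not depend on how libraries are scaled to each other. It was 2.13 ± 0.0774 in tho5ab nuclei at 37 °C and 1.78 ± 0.0833 in tho5ab nuclei at 21 °C, against 1.65 ± 0.0493 and 1.62 ± 0.0330 in Col-0 nuclei at 37 and 21 °C. The cytoplasm had 1.51 ± 0.0762 and 1.65 ± 0.0542 in tho5ab at 37 and 21 °C, against 1.65 ± 0.0680 and 1.56 ± 0.0714 in Col-0. Only tho5ab nuclei at 37 °C stood clear of all other groups, with 2.03, 2.13 and 2.24 as lowest, median and highest value, as the plot of summed levels shows. The sums of large-subunit members in nuclei were 2133 ± 155 CPM in heated tho5ab and 1120 ± 136 CPM in heated Col-0, and those of small-subunit members 1043 ± 81.1 and 742 ± 99.8 CPM. In tho5ab cytoplasm the large-subunit sum was 6042 ± 661 CPM at 37 °C and 5583 ± 875 CPM at 21 °C, whereas the share of raw counts given above runs the other way, so the direction of the summed level with heat depends on the scaling there. Stalk members went the other way in nuclei at 37 °C, with 82.5 ± 9.55 CPM in tho5ab and 103 ± 13.6 CPM in Col-0, although the highest tho5ab library (94.1 CPM) lay above the lowest of Col-0 (92.3 CPM). The sums cover the listed members, not the 144 other cytosolic ribosomal protein genes, and abundant members weigh most in them. RPL4A alone had 225 to 319 CPM in heated tho5ab nuclei and 80.3 to 110 CPM in heated Col-0 nuclei. No test was made of these sums.

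Nuclei and cytoplasm were compared first, for the level of member mRNA relative to the other RNA of each fraction. TMM assumes that most genes do not differ, yet 11072 to 12207 of the 17981 tested genes were called in these comparisons. Nearly every member was called lower in nuclei, whichever genotype and temperature, and 0 were called higher with TMM scaling (at most 1 with DESeq2 size factors). The number called lower among the 54 was 49 in tho5ab at 37 °C (26.9% of all tested genes were called lower there), 53 in tho5ab at 21 °C (27.4% of all genes), 53 in Col-0 at 37 °C (28.9%) and 52 in Col-0 at 21 °C (28.0%). Median log2 fold changes of members, nuclei over cytoplasm, were -2.16 and -2.81 in tho5ab at 37 and 21 °C and -2.59 and -2.92 in Col-0, while the medians of all tested genes were 0.423, 0.480, 0.242 and 0.420 in that order. Without TMM factors (library totals only) the median of all genes moved by 1.19 to 1.35, and in tho5ab at 37 °C the split became 7 higher and 32 lower. The distance between members and all genes was -2.58 with TMM and -2.59 with library totals in that comparison.

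Large differences belonged to RPP1A (AT1G01100), the ribosomal stalk gene, to RPS18A (AT1G22780) and RPS18C (AT4G09800), copies of a protein of the small subunit's head, and to RPL9C, a large-subunit gene also known as PIGGYBACK2. RPP1A had 10.9, 17.1 and 21.5 CPM (lowest, median and highest library) in tho5ab nuclei at 37 °C and 436, 516 and 633 CPM in the cytoplasm (log2 fold change -4.93 ± 0.17, edgeR adjusted p = 9.27e-31). In Col-0 at 37 °C it had 21.7, 23.97 and 35.4 CPM in nuclei and 563, 702 and 890 CPM in cytoplasm (-4.74 ± 0.17, edgeR adjusted p = 3.34e-30). These ranges lie more than an order of magnitude apart. For RPS18A the log2 fold change at 21 °C was -4.98 ± 0.27 in tho5ab and -4.77 ± 0.26 in Col-0. RPS18C gave -5.54 ± 0.25 and -5.06 ± 0.24, and RPL9C -5.13 ± 0.23 and -4.85 ± 0.22. Both are uncertain members. Without the 16 libraries of high opposite-strand counts the values were -5.71 and -5.12 for RPS18C and -5.52 and -4.83 for RPL9C. RPL9C also has a near-identical copy, AT1G33120, and leaving out those libraries cannot separate the reads of RPL9C from those of that copy.

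At the other end stood members that were not called lower in nuclei. In tho5ab at 37 °C these were RPL24A (0.47), RPL11B (0.07), RPL8C (-0.02), RPL12C (-0.50) and RPL11A (-0.93), all of the large subunit. RPL11A, a copy of a protein that joins 5S rRNA to the large subunit, was not called in either Col-0 comparison (-1.05 and -0.90 at 21 and 37 °C), and with means of 1.23 to 8.19 CPM it is among the least abundant members tested. RPL3B was not called at 21 °C in tho5ab (-0.30) or Col-0 (0.27): its levels in Col-0 were 31.6, 38.5 and 44.1 CPM in nuclei and 24.6, 31.4 and 42.2 CPM in cytoplasm, ranges that overlap. Its paralogue RPL3A had 59.9, 67.0 and 74.9 CPM in Col-0 nuclei and 623, 697 and 764 CPM in Col-0 cytoplasm at 21 °C, with no overlap.

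Heat was followed by a rise of most members in nuclei of both genotypes. In tho5ab nuclei 41 of 54 members were higher at 37 than at 21 °C and 0 lower (25.1% of all tested genes were higher and 27.1% lower), with a median log2 fold change of 0.859 for members and -0.069 for all genes. In Col-0 nuclei 44 were higher and 0 lower (21.9% and 23.8% of all genes), with medians of 0.733 and -0.062. Both subunits took part, with medians of 0.918 (large and stalk) and 0.695 (small) in tho5ab and 0.729 and 0.762 in Col-0. Of the members called higher, 39 were shared, which is 95.1% of the tho5ab list and 88.6% of the Col-0 list. With library totals only, 27 members were higher and 2 lower in tho5ab nuclei, and 38 and 0 in Col-0 nuclei.

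**Figure D2:**
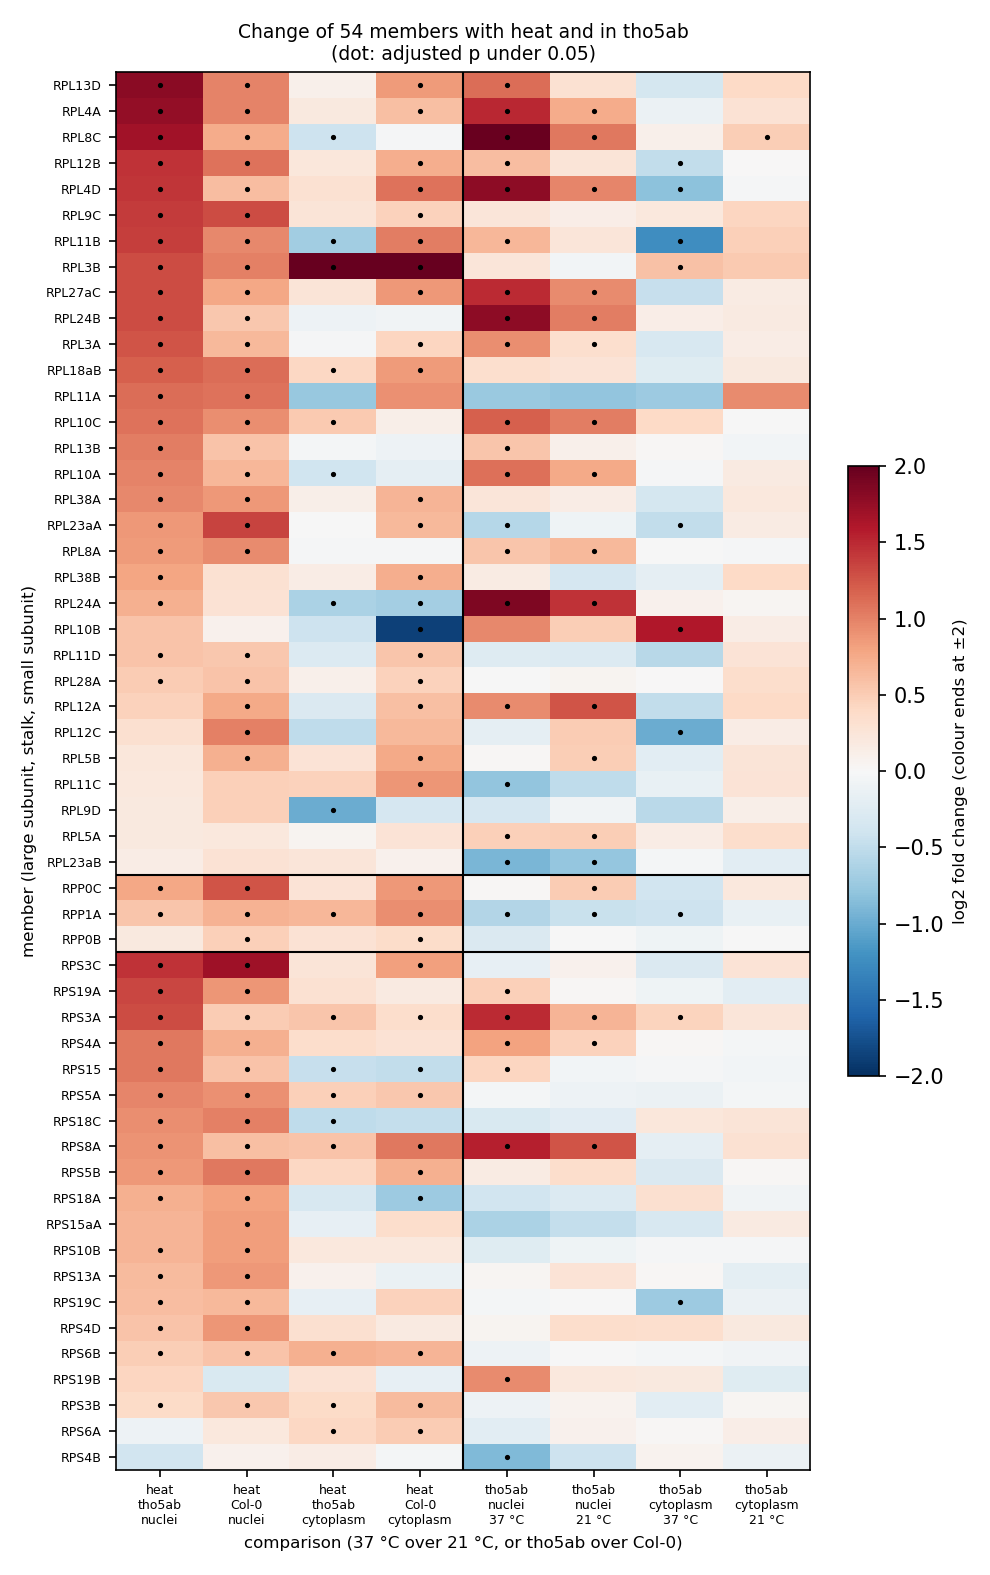
Log2 fold change (colour, ends at ±2) of the 54 tested members (rows: large subunit, stalk and small subunit, each sorted by the heat change in tho5ab nuclei) in 8 comparisons (columns: 37 °C over 21 °C on the left, tho5ab over Col-0 on the right); dots mark an adjusted p under 0.05. Both nuclear heat columns carry 0 lower calls, with 41 and 44 higher calls, while those of the cytoplasm hold 10 and 29 higher and 7 and 4 lower calls, a split that becomes 1 higher and 20 lower in tho5ab cytoplasm with library totals only.

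Among large-subunit members in tho5ab nuclei, RPL13D (AT5G23900) had 33.8, 39.8 and 47.2 CPM at 37 °C and 8.44, 10.3 and 17.1 CPM at 21 °C (log2 fold change 1.80 ± 0.18, edgeR adjusted p = 1.02e-11). RPL4A (AT3G09630) had 225, 271 and 319 CPM at 37 °C and 71.8, 80.9 and 91.2 CPM at 21 °C (1.76 ± 0.12, edgeR adjusted p = 7.33e-18). For RPL8C (AT4G36130), a protein near the peptidyl transferase centre, levels were 142, 167 and 193 CPM at 37 °C and 40.6, 52.6 and 61.4 CPM at 21 °C (1.68 ± 0.14, edgeR adjusted p = 2.18e-14). None of these 3 pairs of ranges overlap. RPL8C overlaps another gene, and without the libraries of high opposite-strand counts its change was 1.84.

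In Col-0 nuclei the largest change was in RPS3C (AT5G35530), a copy of the protein at the mRNA entry channel of the small subunit. It had 66.4, 76.2 and 97.7 CPM at 37 °C and 22.2, 24.5 and 27.8 CPM at 21 °C (1.70 ± 0.16, edgeR adjusted p = 1.07e-12). RPL23aA (AT2G39460), whose protein sits at the exit of the peptide tunnel, had 34.1, 39.0 and 55.7 CPM at 37 °C and 14.1, 16.7 and 18.0 CPM at 21 °C (1.35 ± 0.15, edgeR adjusted p = 6.06e-11). RPL9C followed at 1.3 ± 0.20 (edgeR adjusted p = 4.8e-07), with 6.21, 8.48 and 13.6 CPM at 37 °C and 2.7, 4.16 and 4.65 CPM at 21 °C. Again no ranges overlap. Heat called 8 tested members higher in nuclei of neither genotype: RPL10B, RPL11C, RPL23aB, RPL5A, RPL9D, RPS19B, RPS4B and RPS6A. RPS4B, a copy of a small-subunit protein, had log2 fold changes of -0.38 in tho5ab nuclei and 0.09 in Col-0 nuclei.

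The cytoplasm responded less uniformly to heat. Of 54 members, 10 were higher and 7 lower in tho5ab cytoplasm (22.2% and 20.0% of all genes), whereas Col-0 cytoplasm had 29 higher and 4 lower (24.7% and 19.7%). Median changes were 0.175 for members and -0.008 for all genes in tho5ab, and 0.460 and 0.068 in Col-0. The tho5ab share of members called is near that of all genes in both directions. That count depends on scaling and libraries: it became 1 higher and 20 lower with library totals only, 7 and 7 without tho5ab replicate 7 at 37 °C, and 10 calls in all without replicate 2 or 6 and 11 without replicate 4. In Col-0 the count became 20 higher and 6 lower with DESeq2 size factors. Higher in both genotypes were 9 members, which is 90% of the tho5ab list and 31% of the Col-0 list, among them RPL18aB, RPL3B, RPP1A, RPS3A, RPS3B, RPS6A, RPS6B and RPS8A. RPL24A and RPS15 were called lower in both.

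RPL3B (AT1G61580) showed the largest heat change of any member, and it was in the cytoplasm. It had 245, 274 and 406 CPM in tho5ab cytoplasm at 37 °C and 32.01, 45.6 and 57.7 CPM at 21 °C (log2 fold change 2.7 ± 0.18, edgeR adjusted p = 2.16e-18). In Col-0 cytoplasm it had 124, 196 and 277 CPM at 37 °C and 24.6, 31.4 and 42.2 CPM at 21 °C (2.64 ± 0.18, edgeR adjusted p = 1.26e-17). Every library at 37 °C lay above every library at 21 °C. In nuclei its rise was smaller: 69.8, 91.2 and 108 CPM at 37 °C and 25.9, 38.5 and 44.4 CPM at 21 °C in tho5ab (1.31 ± 0.16), and 64.0, 75.8 and 94.1 CPM and 31.6, 38.5 and 44.1 CPM in Col-0 (1.01 ± 0.16). The interaction of heat and fraction, the heat change in nuclei minus that in cytoplasm, was -1.39 ± 0.23 in tho5ab and -1.63 ± 0.24 in Col-0 (edgeR adjusted p = 1.36e-05 and 1.03e-06). RPL3B is an uncertain member because its span overlaps another gene. Without the 16 libraries of high opposite-strand counts its cytoplasmic changes were 2.65 in tho5ab and 2.7 in Col-0. Its paralogue RPL3A (AT1G43170), whose window printed above holds site II letters as well, had 638, 723 and 859 CPM in tho5ab cytoplasm at 37 °C and 592, 789 and 909 CPM at 21 °C and was not called; in Col-0 cytoplasm it rose by 0.43 ± 0.12 (edgeR adjusted p = 0.00306).

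Other cytoplasmic changes in Col-0 were those of RPL4D (AT5G02870; 423, 488 and 561 CPM at 37 °C, 164, 222 and 325 CPM at 21 °C; 1.09 ± 0.13, edgeR adjusted p = 1.69e-09) and RPS8A (AT5G20290; 683, 1012 and 1171 CPM at 37 °C, 258, 518 and 597 CPM at 21 °C; 1.05 ± 0.17, edgeR adjusted p = 1.63e-06). Neither pair of ranges overlapped. In tho5ab cytoplasm RPS6B, a copy of the protein phosphorylated by S6 kinase, had 317, 371 and 479 CPM at 37 °C and 114, 237 and 376 CPM at 21 °C, ranges that overlap (0.71 ± 0.15, edgeR adjusted p = 0.000167). RPP1A had 436, 516 and 633 CPM at 37 °C and 238, 336 and 399 CPM at 21 °C (0.67 ± 0.15, edgeR adjusted p = 0.000203). Both calls were lost with library totals only, where the changes were 0.16 and 0.11. Lower in Col-0 cytoplasm were RPL10B (-1.86 ± 0.51), RPS18A (-0.72 ± 0.23) and RPL24A (-0.68 ± 0.23; -0.57 and not called without the high opposite-strand libraries). RPL10B, a copy of a protein added late in large-subunit assembly, had 1.09, 5.65 and 13.1 CPM at 37 °C and 2.46, 27.2 and 36.9 CPM at 21 °C, so the groups overlap. In tho5ab cytoplasm the lowest changes were RPL9D (-0.99 ± 0.32), RPL11B (-0.69 ± 0.29) and RPL24A (-0.63 ± 0.23). The RPL9D call was lost without replicate 4 or 6 (-0.71 and -0.82), the RPL24A call without replicate 4 or 6 (-0.40 and -0.52), and the RPL11B call without replicate 2, 3, 6 or 7 (-0.46 to -0.76) and without tho5ab replicate 7 at 37 °C alone (-0.54). Without the high opposite-strand libraries the RPL24A call in tho5ab cytoplasm was lost as well (-0.64).

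Whether heat acted differently in the 2 fractions was tested by the interaction of heat and fraction. In tho5ab 24 members had a higher heat change in nuclei than in cytoplasm and 2 a lower one (8.97% and 8.07% of all genes), with a median of 0.799, and -0.039 for all genes. In Col-0 these were 17 and 1 (7.37% and 8.64% of all genes), with medians of 0.311 and -0.123, and 11 calls in all when uncertain members were left out. In tho5ab, values were highest for RPL8C (2.09 ± 0.20), RPL11B (2.07 ± 0.37) and RPL13D (1.71 ± 0.26), and in Col-0 for RPL10B (1.95 ± 0.67), RPS18A (1.52 ± 0.33) and RPS18C (1.48 ± 0.29). RPL8C, an uncertain member, fell by 0.41 ± 0.15 in tho5ab cytoplasm with heat while rising in nuclei. Its cytoplasmic ranges overlap (114 to 205 CPM at 37 °C and 171 to 295 CPM at 21 °C). The RPL10B call was lost when any of replicates 1, 2, 4, 5 or 6 was left out (1.63 to 1.98), and that of RPS6A, lower in tho5ab at -0.51 ± 0.18, was lost without replicate 1, 2, 4 or 5 (-0.40 to -0.50), without tho5ab replicate 7 at 37 °C alone (-0.44) and without the high opposite-strand libraries (-0.36).

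The genotypes were compared within each fraction and temperature. Nuclei of tho5ab held more mRNA of many members than those of Col-0, most of them of the large subunit. At 37 °C 22 of 54 members were higher and 5 lower in tho5ab nuclei (18.5% and 15.9% of all genes), and at 21 °C 17 were higher and 2 lower (12.7% and 8.80%). The median of large-subunit and stalk members was 0.408 at 37 °C and 0.291 at 21 °C, that of small-subunit members -0.0398 and 0.0428, and that of all genes -0.079 and -0.026. Of 34 large-subunit and stalk members 16 were higher and 4 lower at 37 °C, and of 20 small-subunit members 6 and 1. At 21 °C the counts were 14 and 2, and 3 and 0. The split depends on scaling: at 37 °C it was 17 higher and 7 lower with DESeq2 size factors and 14 and 15 with library totals only, which moved the median of all genes by -0.302, and at 21 °C it was 15 and 4 with DESeq2 size factors. Relative to all genes the median of members stayed at 0.279 to 0.282 at 37 °C and at 0.205 to 0.218 at 21 °C. At both temperatures 15 members were higher (68.2% of the 37 °C list and 88.2% of the 21 °C list): RPL10A, RPL10C, RPL12A, RPL24A, RPL24B, RPL27aC, RPL3A, RPL4A, RPL4D, RPL5A, RPL8A, RPL8C, RPS3A, RPS4A and RPS8A.

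RPL8C had 142, 167 and 193 CPM in tho5ab nuclei at 37 °C and 37.7, 41.8 and 48.4 CPM in Col-0 nuclei (log2 fold change 1.98 ± 0.14, edgeR adjusted p = 3.74e-16; 2.01 without the high opposite-strand libraries). RPL24A (AT2G36620) had 65.8, 78.9 and 111 CPM in tho5ab and 19.3, 23.1 and 26.0 CPM in Col-0 nuclei at 37 °C (1.87 ± 0.21, edgeR adjusted p = 5.11e-10; 1.82 without those libraries). RPL24B (AT3G53020), known as SHORT VALVE1 for its part in gynoecium development, had 111, 125 and 159 CPM against 33.1, 37.2 and 48.0 CPM in Col-0 (1.79 ± 0.15, edgeR adjusted p = 2.06e-14). In all 3 members the genotypes were fully apart. RPL4D, with no site II letters in its printed window, had 162, 194 and 227 CPM in tho5ab nuclei and 50.4, 56.6 and 63.6 CPM in Col-0 nuclei (1.79 ± 0.13, edgeR adjusted p = 7.21e-16). RPL4A, with 4 such matches, had 225, 271 and 319 CPM in tho5ab and 80.3, 92.8 and 110 CPM in Col-0 (1.51 ± 0.12, edgeR adjusted p = 5.01e-15), so both copies of RPL4 were higher. Of the small subunit, RPS8A had 276, 335 and 400 CPM in tho5ab against 97.1, 113 and 136 CPM in Col-0 (1.55 ± 0.17), and RPS3A (AT2G31610) 121, 130 and 153 CPM against 41.8, 46.5 and 54.5 CPM (1.49 ± 0.13), again without overlap.

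Lower in tho5ab nuclei at 37 °C were RPL23aB (AT3G55280; 5.23, 7.22 and 10.7 CPM in tho5ab, 11.9, 13.9 and 18.0 CPM in Col-0; -0.91 ± 0.21, edgeR adjusted p = 0.000409) and RPS4B (AT5G07090; 12.2, 14.6 and 17.6 CPM in tho5ab, 21.5, 26.7 and 34.0 CPM in Col-0; -0.88 ± 0.17, edgeR adjusted p = 3.99e-05). RPL11C (-0.78 ± 0.21), RPP1A (-0.59 ± 0.15) and RPL23aA (-0.57 ± 0.14) were lower as well. None of the 5 had overlapping ranges. RPL23aB and RPP1A were also the members called lower at 21 °C (-0.78 ± 0.21 and -0.44 ± 0.15), where the RPP1A call was lost without replicate 1, 4, 6 or 7 (-0.36 to -0.44). At 21 °C RPL24A (1.45 ± 0.21; 1.22 without the high opposite-strand libraries), RPS8A (1.26 ± 0.17) and RPL12A (1.25 ± 0.21) were highest. RPL12A, an intronless gene for a protein of the stalk base, had 23.7, 36.7 and 48.0 CPM in tho5ab nuclei and 11.6, 15.9 and 18.8 CPM in Col-0 nuclei, with no overlap.

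**Figure D3:**
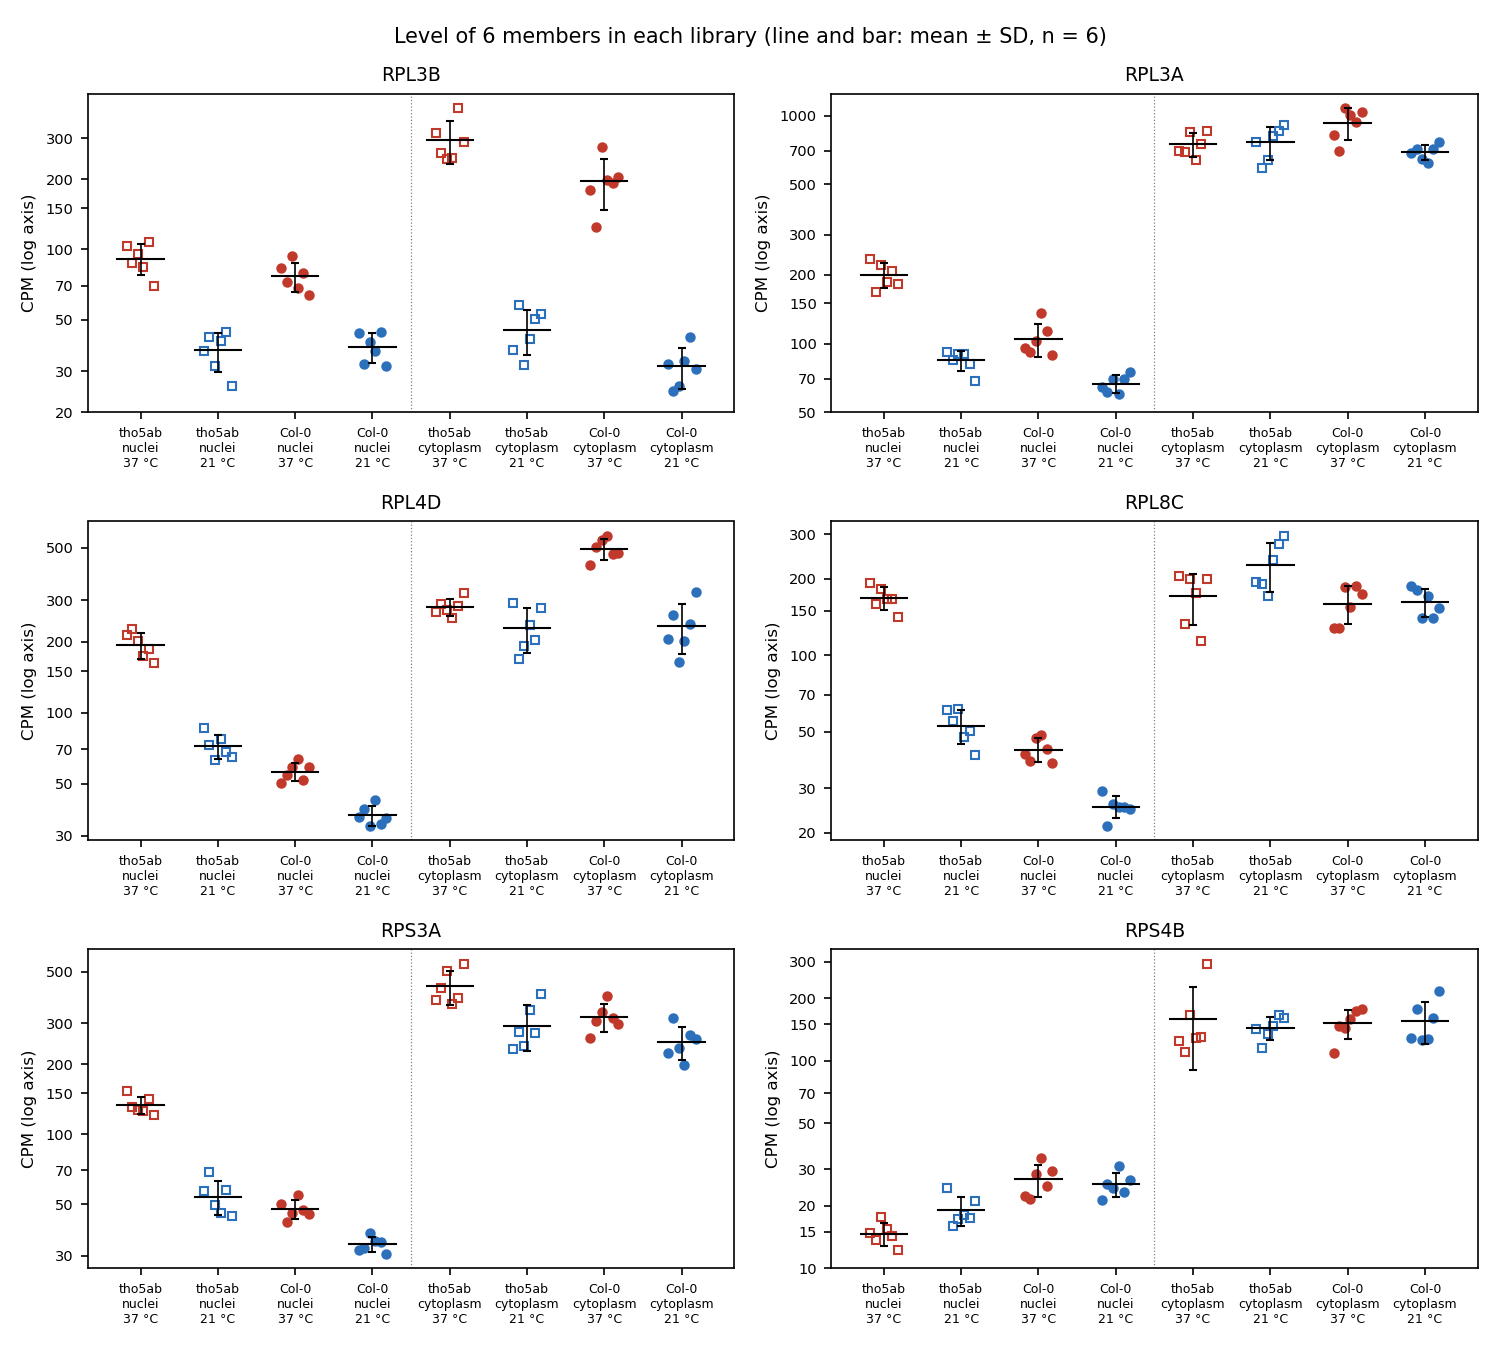
Level in CPM (y axis, log scale) of RPL3B, RPL3A, RPL4D, RPL8C, RPS3A and RPS4B in each library by group (x axis); open squares are tho5ab, filled circles Col-0, red 37 °C and blue 21 °C, with mean ± SD (n = 6). RPL3B in cytoplasm reaches 245 to 406 CPM in heated tho5ab and 124 to 277 CPM in heated Col-0, above all libraries at 21 °C, and RPS4B in tho5ab nuclei at 37 °C lies at 12.2 to 17.6 CPM, below all Col-0 nuclei.

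In the cytoplasm few members differed between genotypes. At 37 °C 3 were higher and 7 lower in tho5ab (6.37% and 7.71% of all genes), and at 21 °C 1 was higher and 0 lower (1.61% and 1.97%), so these shares are near those of all genes or small. The median change was -0.0991 at 37 °C, against -0.06 for all genes, and 0.157 at 21 °C, against 0.001. At 37 °C the count became 0 higher and 19 lower with library totals only, 2 and 10 without tho5ab replicate 7, 4 calls without replicate 1 and 6 without replicate 4, 5 or 6. RPL11B (AT3G58700) had 9.91, 22.6 and 24.2 CPM in tho5ab cytoplasm at 37 °C and 37.5, 44.4 and 55.5 CPM in Col-0 cytoplasm (-1.25 ± 0.28, edgeR adjusted p = 0.00136). RPL4D had 252, 278 and 320 CPM in tho5ab and 423, 488 and 561 CPM in Col-0 (-0.82 ± 0.13, edgeR adjusted p = 1.27e-05). RPL4A was not called there (-0.11 ± 0.12), and its share of the RPL4 pair was 69.3 ± 3.61% in tho5ab cytoplasm and 58.5 ± 2.08% in Col-0 cytoplasm at 37 °C (log2 ratio 0.68, adjusted exact permutation p = 0.00866). RPL4D and RPL11B thus had higher mean levels in tho5ab nuclei and lower ones in tho5ab cytoplasm, with no overlap of the cytoplasm libraries. In nuclei at 37 °C the RPL11B ranges overlapped (16.3 to 22.3 CPM in tho5ab and 9.01 to 16.6 CPM in Col-0), while those of RPL4D did not. RPL12C was lower (-1.0 ± 0.30), a call lost without replicate 1, 3 or 6 (-0.70 to -1.02). Higher were RPL10B (1.60 ± 0.51), RPL3B (0.58 ± 0.16) and RPS3A (0.44 ± 0.13). The RPL10B call was lost without replicate 4, 5 or 6 (1.17 to 1.44), that of RPL3B without replicate 1 or 6 (0.54 and 0.48), and that of RPS3A without replicate 1 (0.42) or tho5ab replicate 7 (0.37). At 21 °C RPL8C was the member called (0.49 ± 0.15, edgeR adjusted p = 0.0445), and the call was lost without replicate 3, 5, 6 or 7 (0.38 to 0.45).

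**Figure D4:**
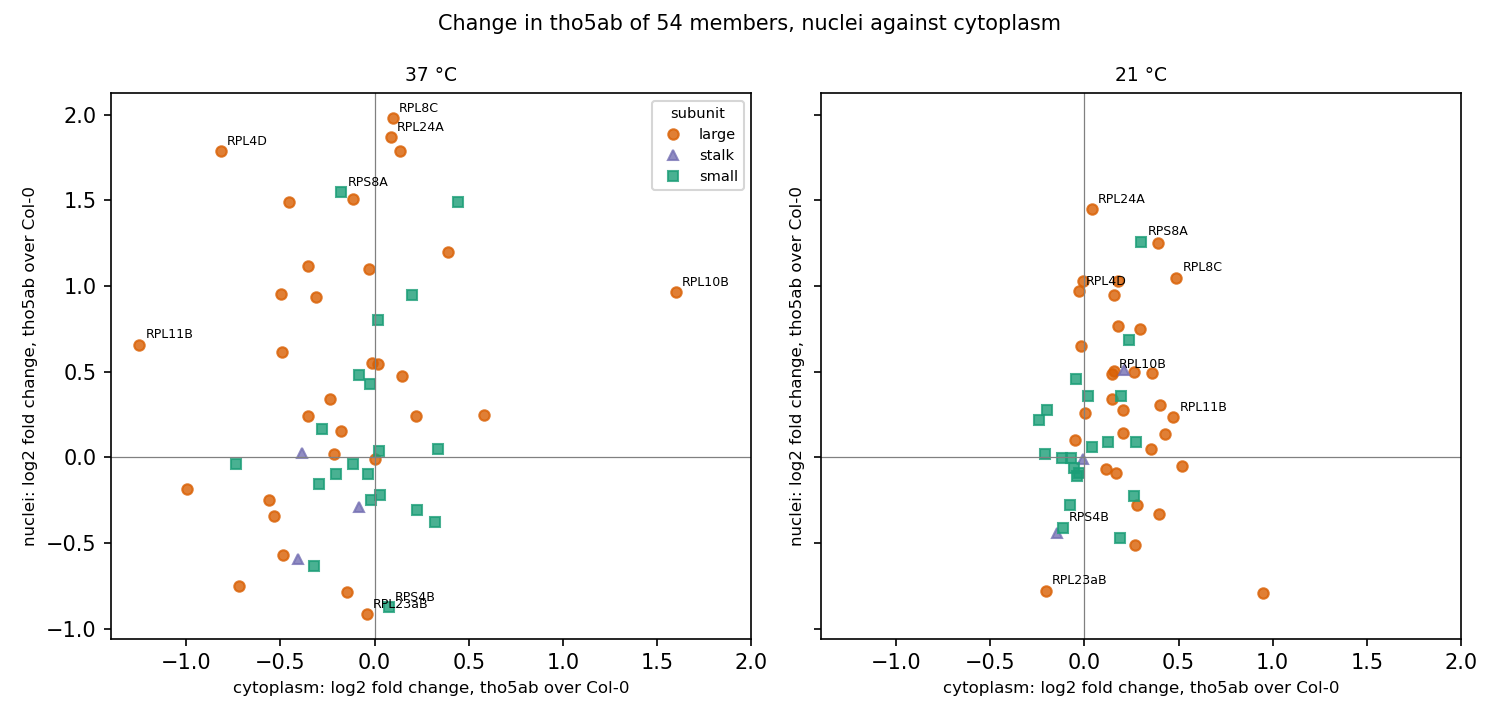
Log2 fold change of tho5ab over Col-0 in nuclei (y axis) against that in cytoplasm (x axis) for the 54 tested members, at 37 °C (left) and 21 °C (right); circles are large-subunit, triangles stalk and squares small-subunit members. At 37 °C RPL8C stands at 1.98 in nuclei and RPL4D at 1.79 in nuclei and -0.82 in cytoplasm.

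The difference of the genotype change between fractions was tested as an interaction. At 37 °C it was higher in nuclei for 17 members and lower for 2 (9.88% and 4.81% of all genes), with a median of 0.546 for large-subunit and stalk members, 0.0929 for small-subunit members and 0.057 for all genes. RPL4D had the highest value (2.60 ± 0.19, edgeR adjusted p = 1.36e-15), followed by RPL27aC (1.95 ± 0.28), RPL11B (1.91 ± 0.37) and RPL8C (1.89 ± 0.20), all of the large subunit. RPS4B (-0.95 ± 0.24) and RPL23aB (-0.87 ± 0.30) were lower, and the RPL23aB call was lost without replicate 1, 3, 4, 6 or 7 and without tho5ab replicate 7 alone (-0.72 to -0.89). At 21 °C 6 members were higher and 0 lower (4.50% and 1.90% of all genes), with RPL24A (1.41 ± 0.31), RPL10C (1.04 ± 0.21) and RPL4D (1.0 ± 0.18) at the top. The count was 12 by DESeq2's Wald test and 1 without the high opposite-strand libraries, where RPL4D kept its call (0.93) and those of RPL24A (1.13) and RPL10C (0.92) were lost.

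Whether heat acted differently in the 2 genotypes was tested likewise. In nuclei 6 members had a higher heat change in tho5ab than in Col-0 and 0 a lower one (2.51% and 1.18% of all genes): RPL8C (0.93 ± 0.20), RPL4D (0.81 ± 0.18), RPS3A (0.81 ± 0.18), RPL4A (0.77 ± 0.17), RPL24B (0.76 ± 0.20) and RPL3A (0.59 ± 0.17). With library totals only the calls were 1 higher and 1 lower. In cytoplasm 0 were higher and 2 lower in tho5ab (1.84% and 2.19% of all genes), RPL11B at -1.72 ± 0.39 and RPL4D at -0.79 ± 0.19. The count was 8 lower without tho5ab replicate 7 at 37 °C and 1 without replicate 1, where the RPL4D call was lost (-0.70).

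Paralogues of a family were compared through their shares within a library, which do not depend on scaling between libraries. The share of a member was its count per kb of exon, over that of all tested members of its family, with 0.5 added to each count. Copies of a family outside the members described here were left out. The log2 ratio of the member to its paralogues was compared between groups of 6 by a two-sided exact permutation test, whose smallest p is 0.00216, adjusted over 384 tests (32 ratios of 19 families in 12 comparisons). Of these, 155 passed: 50 of 128 heat comparisons, 41 of 128 genotype comparisons and 64 of 128 fraction comparisons. Nuclei held more of them than cytoplasm. Heat changed 19 of 32 ratios in tho5ab nuclei and 20 in Col-0 nuclei, against 6 and 5 in the cytoplasm. The genotypes differed in 20 ratios in nuclei at 37 °C and 11 at 21 °C, and in 8 and 2 in the cytoplasm. Nuclear libraries were deeper (2601946 to 19914838 counts, against 1025185 to 2174279 in cytoplasm). For RPL11B in tho5ab at 37 °C the SD of the log2 ratio was 0.190 in nuclei and 0.790 in cytoplasm. How far the number of ratios that passed follows this precision was not tested. In the RPS18 family, 0 ratios passed in any comparison.

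**Figure D5:**
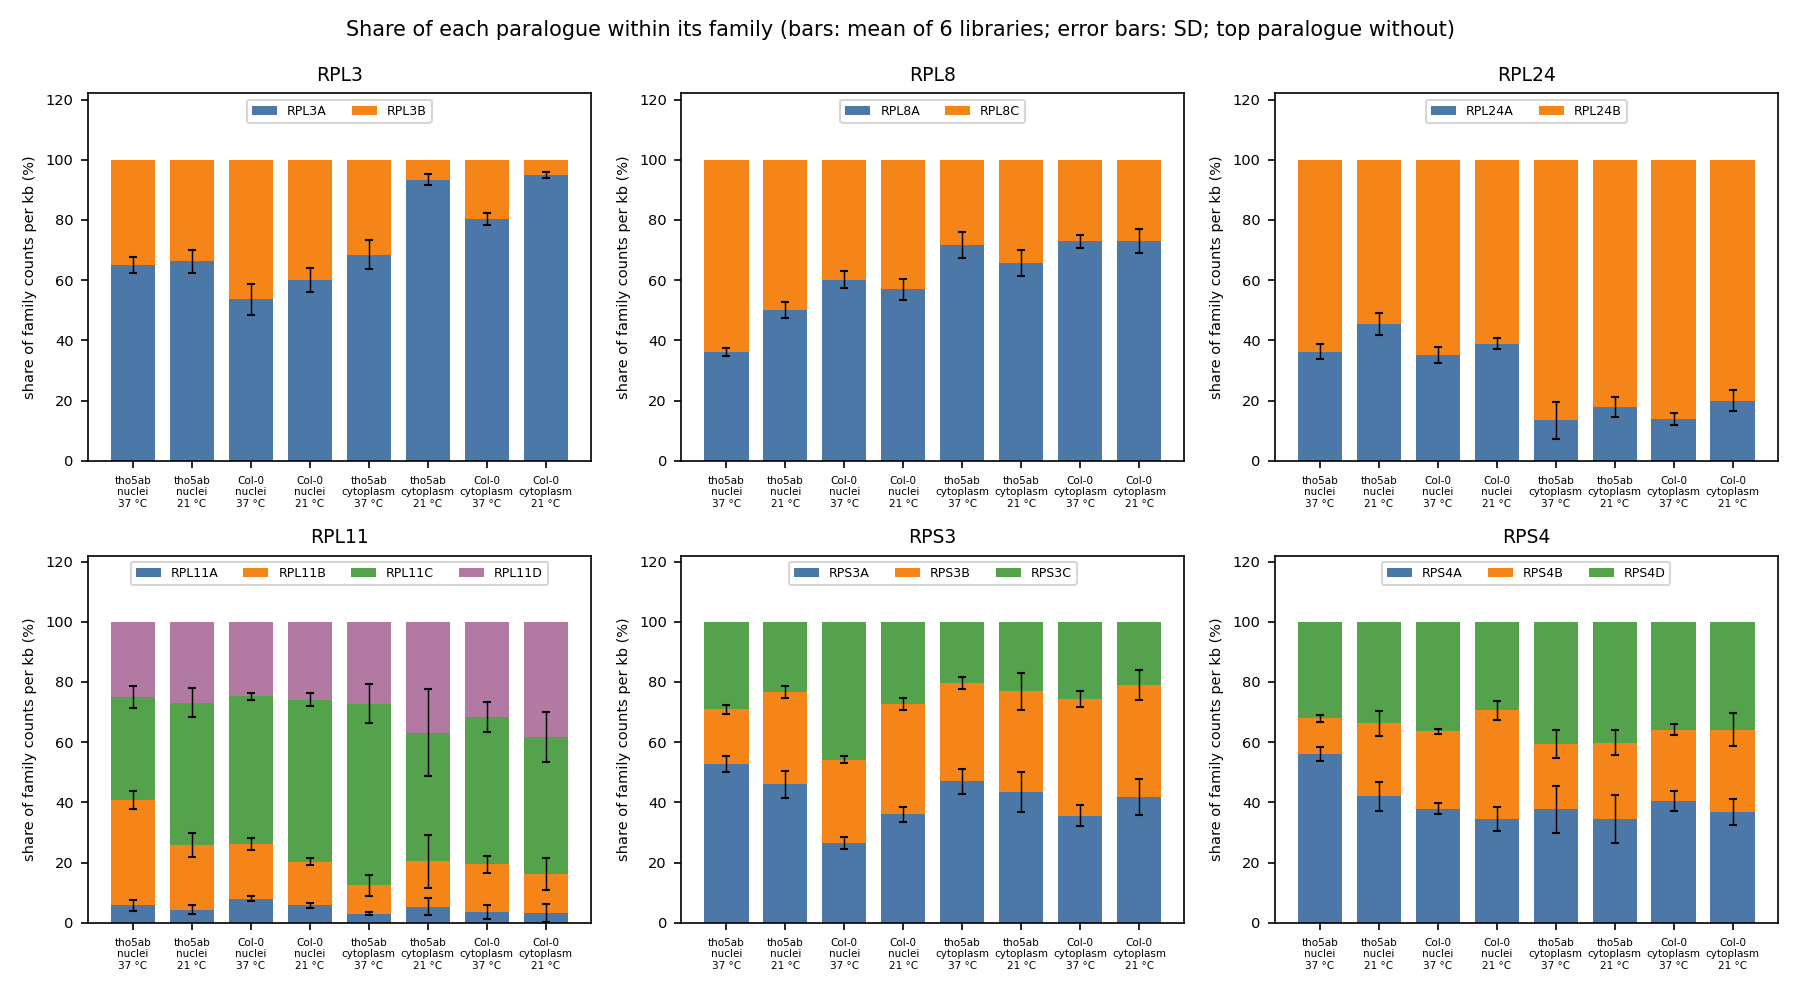
Share of each paralogue within its family (y axis, percent of counts per kb of exon, mean of 6 libraries, SD bars on all but the top paralogue) by group (x axis) for RPL3, RPL8, RPL24, RPL11, RPS3 and RPS4. RPL3A holds 68.5% in heated tho5ab cytoplasm and 80.3% in heated Col-0 cytoplasm, against 93.3% and 94.8% at 21 °C, and RPL8A holds 36.1% in tho5ab nuclei at 37 °C, against 60.2% in Col-0 nuclei.

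In the RPL3 family, RPL3A held 68.5 ± 4.79% in tho5ab cytoplasm at 37 °C and 93.3 ± 1.85% at 21 °C (log2 ratio -2.71, adjusted exact permutation p = 0.00866). In Col-0 cytoplasm it held 80.3 ± 1.96% at 37 °C and 94.8 ± 0.980% at 21 °C (-2.19, same adjusted p, the smallest the test gave). The remainder was RPL3B. In nuclei the RPL3A share was 65.2 ± 2.65% and 66.3 ± 3.79% in tho5ab at 37 and 21 °C, with an adjusted exact permutation p of 0.656 for the change of ratio. Nuclei and cytoplasm at 21 °C differed by -2.86 in tho5ab and -3.64 in Col-0.

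RPL8A held 36.1 ± 1.22% of its pair with RPL8C in tho5ab nuclei at 37 °C and 60.2 ± 2.75% in Col-0 nuclei (-1.42, adjusted exact permutation p = 0.00866), against 71.7 ± 4.36% in tho5ab cytoplasm at 37 °C. RPL24A held 36.3 ± 2.39% of its pair in tho5ab nuclei and 13.4 ± 6.08% in tho5ab cytoplasm at 37 °C (1.99), and 45.5 ± 3.67% and 18.0 ± 3.40% at 21 °C (1.95). RPL11B held 34.9 ± 2.97% of its family in tho5ab nuclei at 37 °C, against 18.1 ± 1.93% in Col-0 nuclei (1.28). In the cytoplasm of tho5ab at 37 °C it held 9.33 ± 3.58%, a difference between nuclei and cytoplasm of 2.51. These 3 families thus had different mixtures in the 2 fractions of tho5ab. For RPL24 and RPL8 this was not particular to tho5ab. In Col-0 at 37 °C RPL24A had 19.3 to 26.0 CPM in nuclei and 34.9 to 70.9 CPM in cytoplasm. RPL24B had 33.1 to 48.0 and 206 to 373 CPM there, so RPL24A made up more of the pair in nuclei. In the same Col-0 groups RPL8A had 53.2 to 81.9 CPM in nuclei and 311 to 522 CPM in cytoplasm. RPL8C had 37.7 to 48.4 and 128 to 188 CPM, so RPL8C made up more of its pair in nuclei. RPL8C, RPL24A and RPL11C are uncertain members. In tho5ab cytoplasm RPL11C made up 60.3 ± 6.43% of its family at 37 °C and 42.7 ± 14.4% at 21 °C (1.09, adjusted exact permutation p = 0.0483), a call lost when any replicate was left out (0.72 to 1.33). RPL9C held 82.0 ± 3.33% of its pair with RPL9D in tho5ab nuclei at 37 °C and 66.6 ± 4.70% at 21 °C (1.205). RPL9C is an uncertain member. Its near-identical copy AT1G33120 is not among the members, so this is not a share of the whole family.

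Small-subunit families changed as well. RPS3A held 52.7 ± 2.68% of its family in tho5ab nuclei at 37 °C and 26.6 ± 1.87% in Col-0 nuclei (1.62, adjusted exact permutation p = 0.00866). RPS3C held 29.1 ± 1.46% in tho5ab and 45.8 ± 2.15% in Col-0 there (-1.04). In Col-0 nuclei the RPS3C share was 45.8 ± 2.15% at 37 °C and 27.3 ± 2.34% at 21 °C (1.17). At 37 °C the leading RPS3 copy in nuclei was RPS3A in tho5ab and RPS3C in Col-0. RPS4A held 55.98 ± 2.31% in tho5ab nuclei at 37 °C and 38.0 ± 1.83% in Col-0 nuclei (1.06). RPS4B held 11.9 ± 1.12% in tho5ab nuclei at 37 °C, against 25.6 ± 0.811% in Col-0 nuclei (-1.36), while at 21 °C tho5ab nuclei held 24.3 ± 4.10% (heat change -1.24).

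Other genes of the translation machinery were followed in lists. Of all tested genes, heat called 25.1% higher and 27.1% lower in nuclei of tho5ab, and 21.9% and 23.8% in those of Col-0. For cytoplasm the shares were 22.2% and 20.0% in tho5ab, and 24.7% and 19.7% in Col-0. The heat counts of each list stand against these shares. Among 137 tested genes for other cytosolic ribosomal proteins, 96 were higher and 3 lower with heat in nuclei of tho5ab, and 106 and 1 in those of Col-0. In cytoplasm 38 were higher and 12 lower in tho5ab, and 73 and 4 in Col-0. In tho5ab nuclei 43 were higher and 17 lower than in Col-0 nuclei at 37 °C (18.5% and 15.9% of all genes), and 32 and 7 at 21 °C (12.7% and 8.80%). Between 126 and 135 of them were lower in nuclei than in cytoplasm (26.9% to 28.9% of all genes). The list held site II letters in 67.4% of its 144 promoters. Of 32 ribosome biogenesis genes, 18 were higher and 0 lower with heat in nuclei of tho5ab, and 25 and 0 in those of Col-0. Counts in cytoplasm were 13 and 4 for tho5ab and 24 and 0 for Col-0. BOP1, a factor of large-subunit assembly, rose by 1.67 ± 0.20 in tho5ab cytoplasm and 2.69 ± 0.20 in Col-0 cytoplasm (edgeR adjusted p = 7.61e-10 and 3.36e-16). EBP2, a nucleolar assembly factor, was 2.37 ± 0.21 higher in tho5ab than in Col-0 nuclei at 37 °C, where 9 of the list were higher and 9 lower (18.5% and 15.9% of all genes).

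Of 29 translation factors, 23 were higher and 1 lower with heat in nuclei of tho5ab, and 22 and 1 in those of Col-0. Cytoplasmic counts were 13 and 4 for tho5ab and 16 and 3 for Col-0. The translation factor eIF5A3, whose gene overlaps another or has a near-identical copy, was higher with heat in the cytoplasm of tho5ab (1.5 ± 0.17) and of Col-0 (1.84 ± 0.17). The initiation factor eIF3A was lower with heat in the cytoplasm of tho5ab (-1.16 ± 0.15) and of Col-0 (-0.66 ± 0.15). Of 17 genes of TOR signalling, the growth pathway that steers ribosome production, and of known regulators, 9 were higher and 1 lower with heat in nuclei of tho5ab, and 8 and 0 in those of Col-0. Here cytoplasmic counts were 7 and 1 for tho5ab and 7 and 2 for Col-0. The list includes HSP101, used above as a check of the heat label. It was called higher in both fractions of both genotypes (log2 fold change 6.93 to 11.1), so each count of higher genes includes it. LARP1A, an RNA-binding protein that acts in mRNA decay under heat, was lower with heat in the cytoplasm of tho5ab (-1.45 ± 0.15) and of Col-0 (-0.87 ± 0.14). MAF1, a repressor of RNA polymerase III, was higher there (1.89 ± 0.19 in tho5ab and 2.67 ± 0.19 in Col-0).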

How the data were processed

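RNA of 48 libraries was measured by total RNA sequencing after rRNA depletion. The deposited values are raw counts of reads per gene, made by the authors with STAR 2.7.8a, Picard, UMI-tools and featureCounts on TAIR10 per the submitters' processing notes; the order of steps and the strand setting are not given in the sources used here. Gene groups followed the labels. edgeR 4.0.16 (R 4.3.3) was fitted to all 48 libraries with TMM factors, filterByExpr and 1 mean per group, and its quasi-likelihood test gave 18 comparisons, 12 of 2 groups and 6 interactions, with Benjamini-Hochberg adjustment over 17981 genes at 0.05. The SE was taken from the fold change and F statistic and is approximate. Paralogue ratios used exact permutation tests (Python 3.11.15, scipy 1.17.1), and copies and overlaps came from blastn 2.17.0+ and the RefSeq annotation. The edgeR and permutation code was tested on simulated data.

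The members and gene lists were chosen with earlier results of these data known. Members given with their values in each library group were up to 3 highest and 3 lowest called per comparison, the 5 with the highest level per kb, those that failed the filter, and those whose paralogue ratio changed most; other lists were counted, with at most 2 named each way. Alternatives were DESeq2 1.42.0 size factors and Wald test, library totals, no filter, only the groups compared, each replicate left out, a replicate block, libraries without high opposite-strand counts, a strand covariate, uncertain members left out, and a prior count of 2. Root, flower and leaf markers were summed as a check of tissue. Depth was 1025185 to 19914838 counts, and precision is lowest for members of few counts in cytoplasm. Results on some members are not reported here.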

Additional observations from a re-analysis of the deposited data

Results flagged for a closer look

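Single libraries stood apart from the other 5 of their group in 9 of 118 groups examined, and chance alone gives about 1 in 20. Of members, RPP1A had 35.4 CPM in replicate 4 of Col-0 nuclei at 37 °C (others 21.72 to 26.58), RPS18A 5.85 CPM in replicate 7 of tho5ab nuclei at 21 °C (others 2.644 to 3.623), RPL9C 146 CPM in replicate 7 of Col-0 cytoplasm at 21 °C (others 96.49 to 110.2) and RPL23aA 14.1 CPM in replicate 7 of Col-0 nuclei at 21 °C (others 16.61 to 17.96). Summed levels stood apart in replicate 7 of tho5ab cytoplasm at 37 °C, with 7322 CPM for the large subunit (others 5586 to 6152) and 6130 CPM for the small subunit (others 4129 to 4714). The small-subunit sum was 518.7 CPM in replicate 7 of tho5ab nuclei at 21 °C (others 599.7 to 621.2), the stalk sum 128.9 CPM in replicate 4 of Col-0 nuclei at 37 °C (others 92.33 to 104.9), and the large to small ratio 1.699 in replicate 7 of Col-0 cytoplasm at 21 °C (others 1.512 to 1.566).

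Interactions called by edgeR marked members whose change differed between conditions. The genotype change was larger in nuclei than in cytoplasm at 37 °C for RPL4D (2.60), RPL27aC (1.95) and RPL11B (1.91) and smaller for RPS4B (-0.95) and RPL23aB (-0.87); at 21 °C it was larger for RPL24A (1.41), RPL10C (1.04) and RPL4D (1.0). The heat change was larger in tho5ab than in Col-0 nuclei for RPL8C (0.93), RPL4D (0.81) and RPS3A (0.81), and smaller in tho5ab than in Col-0 cytoplasm for RPL11B (-1.72) and RPL4D (-0.79). Between nuclei and cytoplasm, the heat change in tho5ab differed for RPL8C (2.09), RPL11B (2.07), RPL13D (1.71), RPL3B (-1.39) and RPS6A (-0.51). In Col-0 it differed for RPL10B (1.95), RPS18A (1.52), RPS18C (1.48) and RPL3B (-1.63). The causes were not tested.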

How the results depend on the processing

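No fold change or ratio called for a named member changed sign under the alternatives run; members given as not called were not followed, and scaling can turn the sign of values near 0. With library totals the balance of called members turned for heat in tho5ab cytoplasm (1 higher, 20 lower) and for genotype in nuclei at 37 °C (14 higher, 15 lower), and the summed level in tho5ab cytoplasm was lower at 37 °C than at 21 °C. Several counts moved. With only the groups compared there were 10 calls for heat in tho5ab cytoplasm (17 in the full design), 4 for genotype in cytoplasm at 37 °C (10), 0 and 13 for the interaction of genotype and heat in cytoplasm (2) and nuclei (6). With library totals the counts were 19 for genotype in cytoplasm at 37 °C and 18 and 2 for that interaction. Without the high opposite-strand libraries they were 9 for heat in tho5ab cytoplasm, 6 for genotype in cytoplasm at 37 °C, 1 for genotype by fraction at 21 °C (6), and 1 and 2 for genotype by heat. The single genotype call in cytoplasm at 21 °C became 0 with no filter, only the groups compared, the replicate block, without those libraries, or with uncertain members left out. DESeq2's Wald test gave 12 for genotype by fraction at 21 °C and 4 for genotype by heat in cytoplasm, which held 8 without tho5ab replicate 7 at 37 °C. With uncertain members left out, heat by fraction in Col-0 had 11 (18).

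Leaving out each replicate gave ranges of 10 to 18 for heat in tho5ab cytoplasm, 0 to 1 and 4 to 15 for genotype in cytoplasm at 21 and 37 °C, and 1 to 8 for genotype by heat in cytoplasm (3 without replicate 7). Of 155 paralogue ratios, 0 passed with a replicate block, a design whose smallest p cannot pass the adjustment. Without the high opposite-strand libraries 0 passed as well. There 1 to 3 of the 6 libraries of a group were left out, which raises the smallest p. In comparisons at 37 °C that p could still pass if enough ratios reached it, so this loss was not fixed by the design alone. Replicate numbers were not taken as pairs. Over 66 same-numbered pairs, deviations correlated at -0.531 to 0.607. Of these pairs, 24 correlated best with their own number, and in 0 comparisons were all above 0.1. Pairs of nuclei and cytoplasm alike in opposite-strand state (both high or neither) correlated at 0.079 to 0.29, and those unlike at -0.164 to -0.008. Whether nuclei and cytoplasm of the same number share plants was not tested, and tests across fractions treat them as independent. Among single members the block lost RPL10B, RPL8C, RPL23aB and RPL11B calls, 4 of 70. The causes were not tested. Cytoplasmic depth limits members of few counts.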
